A study of Homo sapiens with 6 samples.

Results

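Genes of sterol and fatty acid synthesis were examined 10 hours after a short exposure to cisplatin, a platinum compound that forms crosslinks in DNA, in the established human lung adenocarcinoma line A549. The 8 genes were HMGCS1, MVD, IDI1, FDPS, SQLE, INSIG1, SCD and FASN, taken by symbol as targets of the sterol regulatory element binding proteins (SREBP). All 8 had a probe set, 9 probe sets in all out of 8746 besides the array's controls, and all 9 were bright enough to be tested, as were 6559 of the whole array. These 6559 probe sets stood for 5816 named genes.

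The cisplatin group consisted of 3 arrays, cisplatin 1 to 3, from cells kept for 1 hour in medium with 50 µM cisplatin. The control group consisted of 3 arrays, control 1 to 3, from cells that spent that hour in medium without the drug. After a wash, all cultures recovered for 10 hours without drug, and the series' design text gives 3 independent experiments as their source. Whether equal array numbers share an experiment is not stated. Each value is a probe set intensity, a brightness on a linear scale, and the number of arrays limits its precision.

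In animal cells cholesterol is made from acetyl-CoA through mevalonate, isoprenoid diphosphates and squalene, and fatty acids are made from the same precursor through malonyl-CoA. SREBP transcription factors are held in the endoplasmic reticulum by SCAP and INSIG proteins while sterols are plentiful, and are carried to the Golgi and cut free when sterols fall. They then raise the transcription of the enzymes of both routes, commonly together with NF-Y, which binds CCAAT boxes, and Sp1, which binds GC boxes.

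The treatment was visible on the arrays. CDKN1A, an inhibitor of cyclin-dependent kinases that p53 induces, had intensities of 1467, 1370 and 1429 on cisplatin 1 to 3, against 249, 281 and 241 on control 1 to 3, and rose 5.35-fold (adjusted p = 4.74e-06, limma). FAS and PPM1D, also p53 targets, rose too, by 1.98 and 1.56 on the log2 scale (adjusted p = 0.000285 and 0.00122, limma). GAPDH, a glycolytic enzyme used as a loading check, averaged 7451 ± 205 in cisplatin-treated cells and 7691 ± 522 in control cells (SD, n = 3 each). Of 9 epithelial markers, the keratins KRT8 and KRT18 were bright, with lowest values of 1523 and 5247, whereas EPCAM and CDH1, which define many epithelia, did not exceed 36.4 and 46.1. Of the 9, 0 passed the test, with log2 folds of 0.55 for SFTPB, a surfactant protein, and -0.20 for KRT7. The 5 tested markers of other cells (stroma, endothelium, blood) had group means of 37.8 to 102, and 0 of them passed the test, with log2 folds of 0.18 for CD3E and 0.14 for PECAM1. On the first principal component, which held 39.9% of the variance, cisplatin 2 and control 1 lay at 17.1 and 14.4. This was away from the 4 others at -12.4 to -1.69, so values without cisplatin 2 and control 1 are given below. On the second component those 2 arrays lay at opposite ends, at -14.6 and 14.8, so they deviated alike on the first component but not on the second.

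In RNA from whole cultures, fewer cells of a kind and less RNA per cell cannot be told apart. None of the 8 genes passed the test in either direction: 0 of 8 had an adjusted p under 0.05 in limma, where 0.29% of all tested probe sets did, 0.213% with a rise and 0.0762% with a fall. At an unadjusted p under 0.05 there were 2, MVD with a higher level after cisplatin and SCD with a lower one, where 5.03% of all tested probe sets reached that level. The median log2 fold of the 8 genes was 0.04, and that of all tested probe sets was also 0.04. The log2 fold was above 0 for 4 of the genes and below 0 for 4, against 60.5% above 0 over all tested probe sets. The same split of 4 and 4 was found with arrays centred on their median and with quantile normalization. In this fit the 95% interval of the fold lay within 1.5-fold either way for 6 of the 8 genes, all but MVD and FASN. That count changed with the setting. It was 4 without control 2, and 5 with the replicate block or without the intensity trend. It was also 5 without cisplatin 2, without cisplatin 3 or without control 3, and 6 or 7 in the other settings that tested all 8. Within 2-fold lay the intervals of all 8 in this fit. For MVD the 2-fold bound did not hold under every setting: its upper limit was 1.96-fold here, 2.27-fold with an offset of 1 and 2.08-fold with the replicate block. It was 2.24-fold without cisplatin 3, 2.13-fold without control 1, 2.22-fold without control 3, 2.01-fold without both cisplatin 2 and control 1, and 2.03-fold with an RNA integrity measure, described below, as a covariate.

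**Figure D1:**
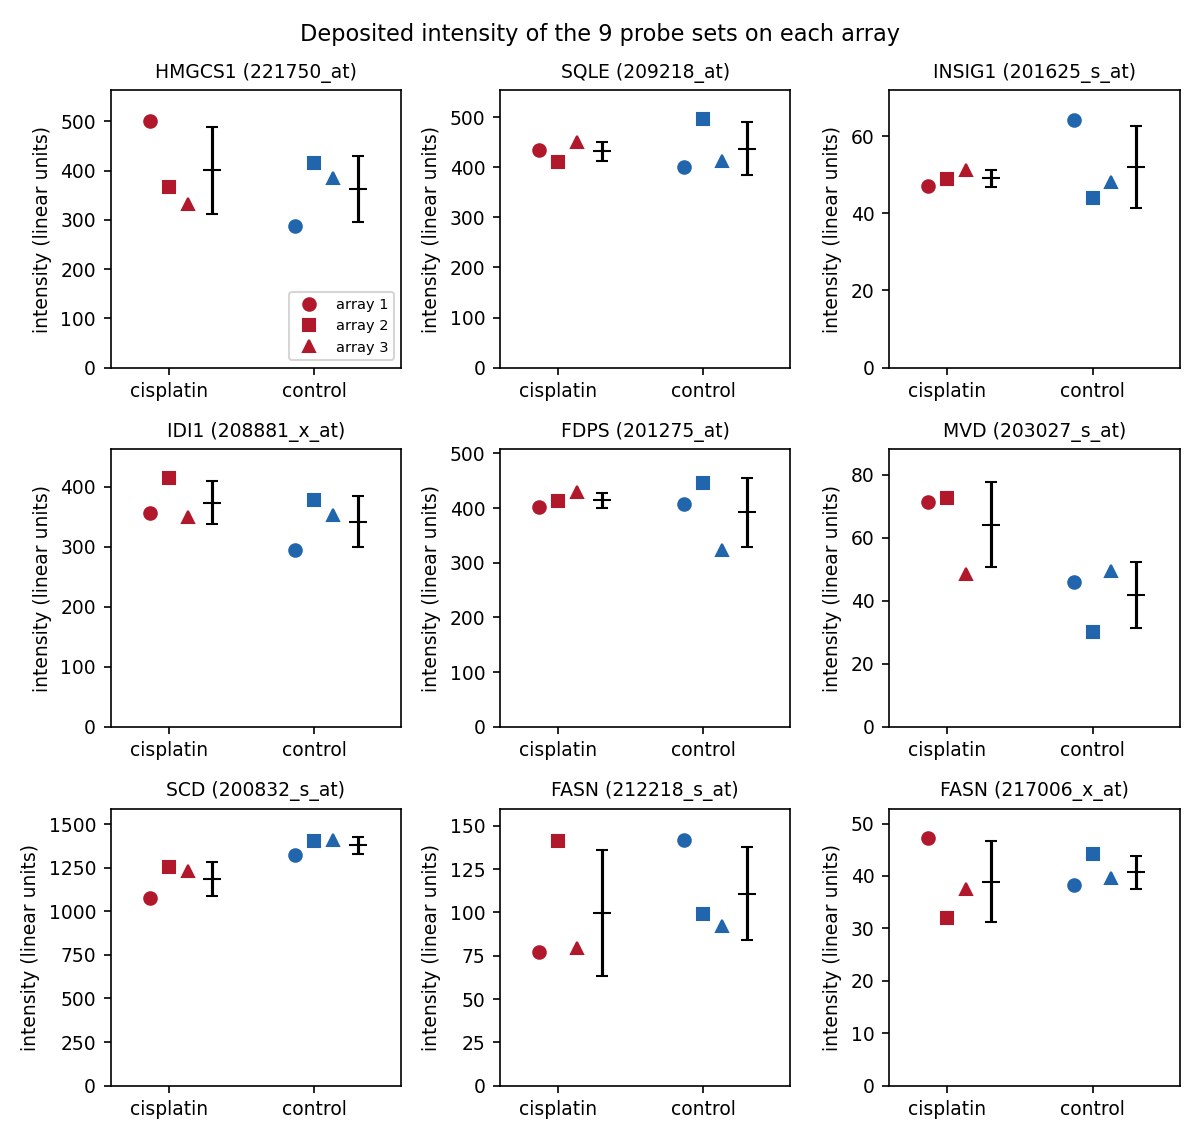
Deposited intensity (vertical axis, linear units from 0) of the 9 probe sets on each cisplatin array (red, left) and control array (blue, right), with circle, square and triangle for arrays 1 to 3 and black marks for mean ± SD (n = 3). The groups overlap in 8 of the 9 panels, and in SCD all 3 cisplatin arrays lie below all 3 control arrays.

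Upstream sequences of 3 of the genes are shown because SREBP targets are known to share binding sites there. MVD and SCD were the genes with the lowest unadjusted p, and HMGCS1 stands at the entrance of the mevalonate route. Each run covers 250 bases before to 50 bases after an annotated start, from RefSeq on GRCh38.p14 and written 5′ to 3′ along the gene's strand. The stretches are chr16:88663042-88663341 (minus strand) for MVD, chr10:100346983-100347282 (plus strand) for SCD and chr5:43313363-43313662 (minus strand) for HMGCS1. Capitals mark CCAAT on either strand, which reads ATTGG where it lies on the opposite one.
MVD: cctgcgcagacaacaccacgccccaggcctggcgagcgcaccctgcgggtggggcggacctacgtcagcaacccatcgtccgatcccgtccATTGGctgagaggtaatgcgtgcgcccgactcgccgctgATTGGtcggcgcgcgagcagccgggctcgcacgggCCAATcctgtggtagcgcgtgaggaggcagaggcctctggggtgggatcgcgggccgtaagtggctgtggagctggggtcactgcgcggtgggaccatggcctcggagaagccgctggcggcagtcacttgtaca
SCD: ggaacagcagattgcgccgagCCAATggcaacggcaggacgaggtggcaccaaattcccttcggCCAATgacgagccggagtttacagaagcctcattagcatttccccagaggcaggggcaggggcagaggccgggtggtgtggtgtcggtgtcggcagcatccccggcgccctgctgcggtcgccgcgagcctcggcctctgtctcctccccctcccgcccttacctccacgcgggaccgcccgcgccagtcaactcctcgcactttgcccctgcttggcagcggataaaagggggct
HMGCS1: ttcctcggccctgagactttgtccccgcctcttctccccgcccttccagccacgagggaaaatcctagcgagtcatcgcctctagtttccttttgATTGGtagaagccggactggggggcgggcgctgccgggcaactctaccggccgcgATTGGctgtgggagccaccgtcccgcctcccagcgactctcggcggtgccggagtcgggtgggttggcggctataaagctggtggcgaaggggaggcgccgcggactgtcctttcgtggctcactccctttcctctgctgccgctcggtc

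The MVD window held 3 CCAAT boxes, 159, 120 and 85 bases before the start, and the SCD window held 2, 229 and 186 bases before it. In HMGCS1 there were 2, both on the opposite strand, 155 and 100 bases before the start. Windows were analysed for 6 of the genes, HMGCS1, INSIG1, IDI1, FDPS, MVD and SCD, and not for SQLE or FASN. There were 9 windows among the 6 genes because HMGCS1 has 2 and IDI1 has 3. The 2 windows of HMGCS1 overlap each other, and so do 2 of the 3 of IDI1, so the 9 are not separate sequences. CCAAT was found in 7 of the 9 windows, whereas 34.6% of all 35116 analysed windows of the same length held it. Each of the 6 genes had it in at least 1 window, a count per gene that the share of windows does not match. The GC box GGGCGG, searched on both strands, was found in 9 of 9 windows, against 45% of all windows. The sterol regulatory element, searched as TCACNCCAC on both strands, was found in 0 of 9 windows and in 1.13% of all. No CCAAT box overlapped a match of the other motifs. A match is a match of letters and not a measured binding site. The absence of one concerns the exact pattern searched and these windows alone, and a site that differs from the pattern would be missed.

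The sterol route was followed from its first step. HMGCS1 (chr5:43287470-43313412), the cytosolic synthase that makes HMG-CoA, had intensities of 501, 367 and 333 on cisplatin 1 to 3, against 289, 416 and 384 on control 1 to 3. Cisplatin 1 was the highest and control 1 the lowest array. Between them, cisplatin 2 and 3 both lay below control 2 and 3, so only the 2 extreme arrays went with a higher level after cisplatin. With all arrays the log2 fold was 0.13 (SE 0.18, 95% interval -0.27 to 0.54, adjusted p = 0.999 in limma). An RNA integrity measure, the ACTB 3′/5′ ratio, which grows as RNA breaks down, was 3.67, 2.67 and 2.94 on cisplatin 1 to 3 and 2.20, 2.98 and 2.95 on control 1 to 3, so the highest and lowest HMGCS1 values fell on the arrays with the highest and lowest ratio. With that ratio in the fit the log2 fold was -0.08.

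MVD (chr16:88651940-88663091) encodes mevalonate diphosphate decarboxylase, which makes isopentenyl diphosphate. Its intensities were 71.3, 72.6 and 48.5 on cisplatin 1 to 3, against 46.1, 29.9 and 49.4 on control 1 to 3. Cisplatin 1 and 2 lay above all controls, while cisplatin 3 lay just below control 3, so the groups overlapped. The means were 64.1 ± 13.5 in cisplatin-treated cells and 41.8 ± 10.4 in control cells (SD, n = 3 each). On the log2 scale the difference was 0.51 (SE 0.21, 95% interval 0.04 to 0.97), with an unadjusted p of 0.0360 and an adjusted p of 0.890 in limma. In absolute size it lay at the 97.8th percentile of the folds of all tested probe sets. The probe set was dim, at the 28.3rd percentile of the tested ones. In the fits without 1 array its log2 fold ran from 0.33 without control 2 to 0.66 without cisplatin 3. It also depended on the offset, at 0.31 with an offset of 50 and 0.61 with an offset of 1.

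IDI1 (chr10:1039152-1056704), the isomerase that turns isopentenyl into dimethylallyl diphosphate, gave 357, 414 and 349.7 on cisplatin 1 to 3, against 295, 378 and 352 on control 1 to 3. The extremes were cisplatin 2 and control 1, the arrays that stood apart. The log2 fold was 0.13 (95% interval -0.16 to 0.42) with all arrays and -0.04 without those 2. The suffix of this probe set, x_at, marks probes that can also bind related sequences on arrays of this make, so its signal may include other transcripts.

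FDPS (chr1:155308866-155320665), farnesyl diphosphate synthase, makes the precursor of both squalene and the farnesyl group that is attached to proteins such as RAS. It gave 402, 412 and 429 on cisplatin 1 to 3, against 407, 446 and 323 on control 1 to 3. All cisplatin values lay inside the range of the controls, and the SD was 13.7 in the cisplatin group and 62.6 in the controls, where control 3 was the low array. The fit gave a log2 fold of 0.09 (95% interval -0.21 to 0.39) and -0.04 without control 3.

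SQLE, squalene epoxidase, performs the oxygen-dependent step that starts the sterol part of the route. Its intensities were 435, 411 and 449.6 on cisplatin 1 to 3, against 401, 497 and 412 on control 1 to 3. Control 2 was the highest array and control 1 the lowest. Cisplatin 1 and 3 lay above control 1 and 3, and cisplatin 2 lay just below control 3. The log2 fold was -0.01 (SE 0.12), and its 95% interval, -0.27 to 0.25, corresponds to 0.827-fold to 1.19-fold. Without control 2 the log2 fold was 0.08. With all arrays SQLE was the gene with the smallest fold of the 8, at the 5.46th percentile of absolute size among all tested probe sets.

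INSIG1 (chr7:155297878-155310235) encodes the endoplasmic reticulum protein that retains SCAP and with it SREBP, and is itself an SREBP target. It gave 47.0, 48.8 and 51.2 on cisplatin 1 to 3, against 64.1, 43.8 and 48.1 on control 1 to 3. The cisplatin arrays lay close together, with an SD of 2.12 against 10.7 in the controls, where control 1 was the high array. The fit gave a log2 fold of -0.06 (95% interval -0.43 to 0.32) and 0.08 without control 1. This probe set was dim too, at the 27.6th percentile of the tested ones, and with an offset of 1 its log2 fold was -0.07.

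**Figure D2:**
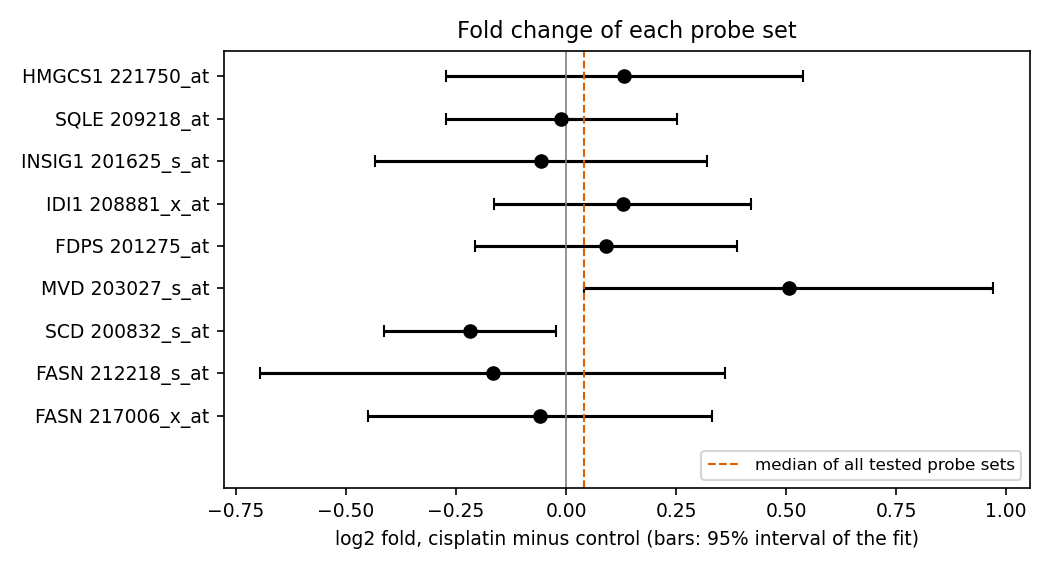
Log2 fold, cisplatin minus control (horizontal axis), of each of the 9 probe sets (points) with its 95% interval from the fit (bars), and the median of all tested probe sets at 0.04 (dashed line). The intervals of MVD, 0.04 to 0.97, and SCD, -0.41 to -0.02, leave out 0, and the other 7 include it.

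Both fatty acid enzymes had lower means after cisplatin, without passing the test. SCD (chr10:100347233-100364826) encodes stearoyl-CoA desaturase, which places the double bond that turns stearate into oleate. It gave 1075, 1256 and 1229 on cisplatin 1 to 3, against 1323, 1405 and 1409 on control 1 to 3. Every cisplatin array lay below every control array, as held for 3.57% of all tested probe sets in that direction and for 1 of the 8 genes. The means were 1187 ± 97.8 in cisplatin-treated cells and 1379 ± 48.7 in control cells (SD, n = 3 each). The log2 fold was -0.22 (SE 0.09, 95% interval -0.41 to -0.02), with an unadjusted p of 0.0328 and an adjusted p of 0.869 in limma. It remained below 0 in each fit without 1 array, from -0.26 to -0.15, and was -0.29 without cisplatin 2 and control 1 (adjusted p = 0.455).

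FASN (chr17:82078338-82098236), the multifunctional synthase that builds palmitate, was measured by a pair of probe sets. The brighter one gave 77.3, 141.4 and 79.6 on cisplatin 1 to 3, against 141.5, 98.9 and 92.2 on control 1 to 3. Its 2 high values fell on cisplatin 2 and control 1, the arrays that stood apart and that had the lowest ACTB 3′/5′ ratios, and the other 4 arrays lay between 77.3 and 98.9. The log2 fold was -0.17 (SE 0.24, 95% interval -0.69 to 0.36) with all arrays. It was -0.42 without cisplatin 2, 0.0049 without control 1 and -0.25 without both (adjusted p = 0.762), and 0.09 with the ACTB ratio in the fit. The dimmer probe set, also of the x_at kind, gave 47.3, 32.0 and 37.5 on cisplatin 1 to 3, against 38.3, 44.2 and 39.6 on control 1 to 3, a log2 fold of -0.06. There cisplatin 2 was the lowest array, and control 1 lay below the 2 other controls, so the high values of those 2 arrays on the brighter probe set were not shared.

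**Figure D3:**
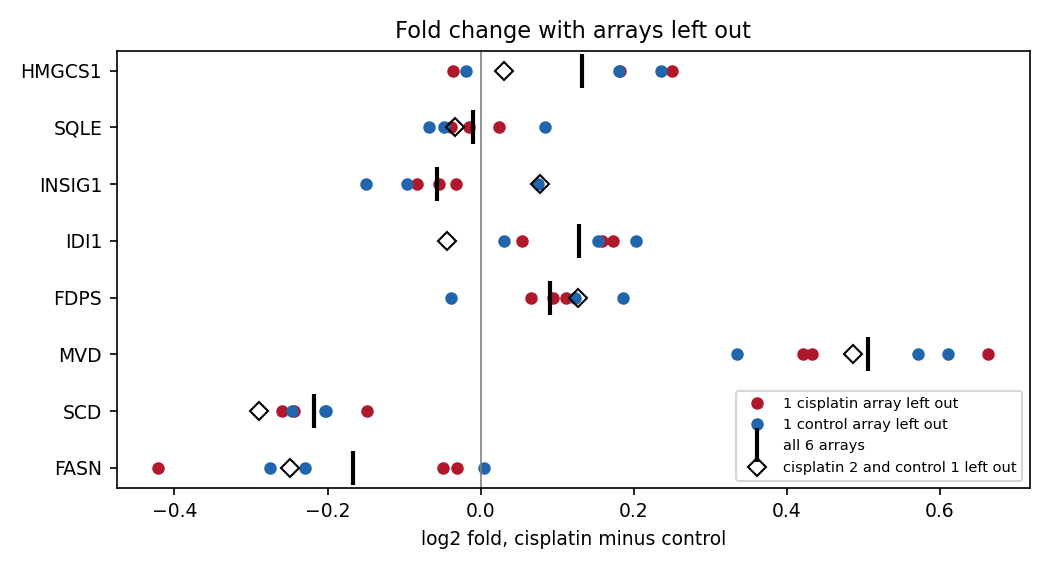
Log2 fold, cisplatin minus control (horizontal axis), of each gene with all 6 arrays (black bar), with 1 cisplatin array (red) or 1 control array (blue) left out, and with cisplatin 2 and control 1 both left out (open diamond). MVD stays between 0.33 and 0.66 and SCD between -0.29 and -0.15, while HMGCS1, SQLE, INSIG1, IDI1, FDPS and FASN each have values on both sides of 0.

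The 8 genes did not all move together over the arrays. The number of them above their own mean was 5, 4 and 3 on cisplatin 1 to 3, against 4, 5 and 2 on control 1 to 3. Over all tested genes the share above their own mean was 54.3%, 55.3% and 51.3% on cisplatin 1 to 3, against 39.9%, 57.3% and 47.2% on control 1 to 3. Averaged over the genes, the deviation from each gene's mean was 0.02, 0.12 and -0.06 on cisplatin 1 to 3 and -0.01, -0.01 and -0.06 on control 1 to 3 on the log2 scale. The genes whose profiles lay nearest to that average, among 5621 others with at least as wide a range, were RPS4Y1, NFYA and KPNA1, with mean absolute differences of 0.022, 0.024 and 0.025 over the 6 arrays. The average spanned only 0.17 and these genes 0.19, 0.18 and 0.21, so their likeness is that of nearly flat profiles. NFYA was also dim, at the 9.27th percentile of the tested probe sets.

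The wider pathway was covered by 8 lists. Apart from the 8 genes they held 139 others, of which 82 had a tested probe set. Of these 82, 0 passed in limma. The unadjusted p was under 0.05 for 3 of them (HSD17B7, MBTPS1 and CYP27A1), and for 5.03% of all tested probe sets. The log2 fold was above 0 for 51, or 62.2% against 60.6% of all tested genes. The groups did not overlap for 9 genes in the higher direction and 2 in the lower one, against 7.42% and 3.57% of all tested probe sets. Counts of genes above 0 depend on the scaling, since 41.7% of all tested genes were above 0 with arrays centred on their median. The counts per list below include any of the 8 genes that belong to it.

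In the cholesterol synthesis list 0 of 16 tested genes passed, 11 were above 0 (of all tested genes, 60.6% were), and the median log2 fold was 0.11 (10 and 0.04 with arrays centred on their median). Besides the enzymes above, the lowest unadjusted p belonged to HSD17B7 and NSDHL, which act in sequence in removing methyl groups from the sterol nucleus. HSD17B7 gave 381, 347 and 355 on cisplatin 1 to 3, against 255, 307 and 319 on control 1 to 3, with a log2 fold of 0.29 (adjusted p = 0.919, limma), on a probe set of the x_at kind. NSDHL gave 154, 170.2 and 165 on cisplatin 1 to 3, against 129, 142 and 126 on control 1 to 3, with a log2 fold of 0.28 (adjusted p = 0.974, limma). In both, every cisplatin array lay above every control array. In the isoprenoid branch, which supplies prenyl groups and ubiquinone, 0 of 8 passed, with log2 folds of -0.33 for PDSS2, a subunit of the synthase that makes the ubiquinone tail, and 0.30 for RABGGTA, a subunit of the enzyme that prenylates RAB proteins.

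In the fatty acid synthesis list 0 of 13 tested genes passed, 7 were above 0 and the median log2 fold was 6.87e-05 (4 and -0.07 with arrays centred on their median). ME1, the malic enzyme that supplies NADPH, averaged 491 ± 17.3 in cisplatin-treated cells and 539 ± 53.7 in control cells (SD, n = 3 each), a log2 fold of -0.13. ACSL1, which activates fatty acids with coenzyme A, had a log2 fold of 0.18. Glycerolipid synthesis had 0 of 10 past the test and a median of -0.03, with 0.25 for PCYT1A, which controls phosphatidylcholine synthesis, and -0.13 for PTDSS1, a phosphatidylserine synthase.

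Among the genes that control SREBP, 0 of 11 passed and the median log2 fold was -0.02. SREBF1 gave 263, 179 and 324 on cisplatin 1 to 3, against 244, 295 and 325 on control 1 to 3, a log2 fold of -0.19 (95% interval -0.65 to 0.26) that was 0.03 without cisplatin 2. SREBF2, the form that mainly drives sterol genes, gave 65.3, 55.6 and 64.1 on cisplatin 1 to 3, against 73.3, 85.0 and 65.1 on control 1 to 3, a log2 fold of -0.23 (95% interval -0.57 to 0.11). Cisplatin 1 lay just above control 3, the lowest control, and the other 4 values did not cross. MBTPS1, the Golgi protease that makes the first cut in SREBP, gave 303, 323 and 315 on cisplatin 1 to 3, against 233, 277 and 259 on control 1 to 3. The groups did not overlap, and its log2 fold was 0.28 (adjusted p = 0.908, limma). SCAP had no probe set with that single symbol and was not analysed here.

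In cholesterol uptake and transport 0 of 10 passed, and 9 of 10 were above 0 with a median of 0.12, against 60.6% of all tested genes above 0 (8 of 10 against 41.7% with arrays centred on their median). SOAT2, which esterifies cholesterol, had a log2 fold of 0.44 (adjusted p = 0.977, limma), and LIPA, the lysosomal acid lipase, had 0.20. Sterol efflux and its LXR regulators had 0 of 6 past the test and a median of 0.16. CYP27A1, which hydroxylates cholesterol to 27-hydroxycholesterol, came nearest to the threshold of the 82 genes. It gave 246, 326 and 257 on cisplatin 1 to 3, against 155, 157 and 149 on control 1 to 3, with a log2 fold of 0.79 (SE 0.14, adjusted p = 0.0639, limma). RXRB, a partner of LXR, had a log2 fold of 0.31. Fatty acid oxidation had 0 of 16 past the test and a median of 0.06 (-0.01 with arrays centred on their median), with 0.32 for CPT2 and -0.21 for CPT1A, the carnitine palmitoyltransferases of the inner and outer mitochondrial membrane.

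**Figure D4:**
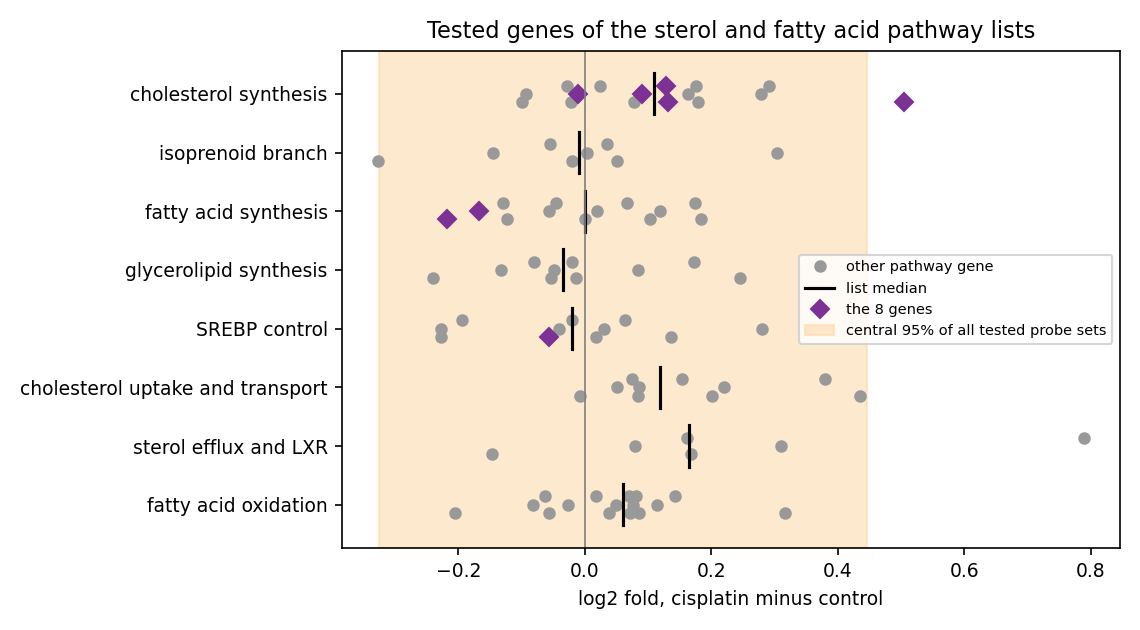
Log2 fold, cisplatin minus control (horizontal axis), of each tested gene in 8 pathway lists (rows), with the 8 genes as purple diamonds, the others in grey, the list medians as black bars and the central 95% of all tested probe sets, -0.33 to 0.45, shaded. MVD at 0.51 and CYP27A1 at 0.79 lie above the shaded range, PDSS2 lies at its lower edge, and the list medians run from -0.03 to 0.16.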

How the data were processed

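Total RNA was labelled with biotin after oligo-dT priming, per the labels' protocols, and hybridised to 6 one-colour oligonucleotide arrays. The authors deposited linear intensities per probe set, 52758 values from -512 to 9153. Of these 1.37% were at or below 0, so a subtraction of some kind had been made. What was subtracted, and how the probe signals were summarised and scaled, is not given in the sources used here. The 75th percentiles spanned 0.15 on the log2 scale, under the limit of 0.3, and the arrays were used as deposited.

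Values below 0 were set to 0, and 11.8, the 10th percentile of positive values, was added before log2, which makes folds of dim probe sets smaller. The 47 control probe sets and the dimmest 25% of the rest were left out. Single symbols came from the platform table for 7840 of 8746 probe sets (388 had several, 518 none), updated through RefSeq (0 changed). The brightest probe set stood for a gene.

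Cisplatin was compared with control by limma 3.58.1 in R 4.3.3 (lmFit, eBayes with intensity trend, two-sided, Benjamini-Hochberg over 6559 probe sets at 0.05), after tests on simulated data. Fold changes, SE and 95% intervals are those of the fit, and means and SD those of the intensities. An exact test of 3 against 3 arrays cannot go below 0.1 and was not used. Figures were drawn with matplotlib 3.10.9.

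The genes and lists were chosen with earlier results of these data known. Named were all 8 genes, SREBF1, SREBF2, SCAP, CDKN1A, GAPDH and ACTB where tested, and in each list the genes past the threshold or otherwise the 2 with the lowest unadjusted p. KRT8, KRT18, EPCAM and CDH1 were added after their values were seen. Alternatives covered scaling, offset, filter, variance trend, the replicate number as a block, arrays left out and the mean over probe sets.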

Additional observations from a re-analysis of the deposited data

How the results depend on the processing

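Over 18 alternative settings, 0 of the 8 genes passed in limma in any, the lowest adjusted p among their 142 values being 0.331 (SCD with array weights). The median log2 fold of the 8 genes ran from -0.04 to 0.14. The ACTB ratio as a covariate, array weights and the removal of cisplatin 2 and control 1 were added after the data were seen. Of 90 pathway genes, the 8 included, 1 passed with the ACTB ratio and 1 with array weights, CYP27A1 in both (log2 0.86 and 0.72, adjusted p = 0.00962 and 0.0118), and 0 in the others. Its adjusted p ran from 0.00962 to 0.353. Against 19 probe sets called over the whole array, 8 were called without the intensity trend, 11 after median centring of the arrays, 5 with the replicate block, 47 with the ACTB ratio and 44 with array weights, and 6 to 18 without 1 array; the cause was not tested. Signs reversed for some genes, none of them called. Without 1 array HMGCS1 ran from -0.036 to 0.25, SQLE from -0.067 to 0.084, INSIG1 from -0.15 to 0.075, FDPS from -0.038 to 0.19, FASN from -0.42 to 0.0049, SREBF1 from -0.38 to 0.030, GAPDH from -0.086 to 0.0091, and CD3E from -0.0043 to 0.33. With the ACTB ratio HMGCS1 was at -0.078, INSIG1 at 0.051, FASN at 0.087 and KRT7 at 0.012, and with array weights HMGCS1 was at -0.044 and INSIG1 at 0.039. Without cisplatin 2 and control 1, INSIG1 was at 0.077, IDI1 at -0.044 and PTDSS1 at 0.0049. MVD and SCD reversed in none of their 17 and 18 values, but their unadjusted p in limma was under 0.05 in only some settings. For MVD it was 0.068 with the replicate block, 0.104 without cisplatin 1, 0.035 without the intensity trend and 0.056 after median centring. For SCD it was 0.060, 0.150, 0.099 and 0.015 in the same settings. MVD and INSIG1 were too dim for the filter at the 50th percentile.

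The labels do not say that equal replicate numbers share an experiment. The deviations of equal numbers correlated at -0.56, -0.31 and -0.12, and 0 of 6 arrays deviated most like its own number. With the replicate block 0 of the 8 genes passed.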
